A study of Mus musculus with 6 samples.

Results

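The genes of the GABA and glutamate receptors were examined in the mouse lateral ganglionic eminence (LGE), the part of the embryonic ventral forebrain that produces the projection neurons of the striatum. Members were the protein-coding genes whose symbols name a GABA-A (Gabr), GABA-B (Gabbr), AMPA (Gria), kainate (Grik), NMDA (Grin), delta (Grid) or metabotropic glutamate (Grm) receptor subunit. There were 44 of them among the 29659 genes of the table: 18 GABA receptor genes, of which 16 were GABA-A and 2 GABA-B, and 26 glutamate receptor genes, of which 4 were AMPA, 5 kainate, 7 NMDA, 2 delta and 8 metabotropic. RNA was taken from LGE of C57BL/6 mice at embryonic day 16.5 and sequenced, with 3 libraries for each of 2 genotypes. Controls had the Dlx5/6-Cre transgene, which drives Cre recombinase in the ganglionic eminences and the neurons they make. The Zfhx3-CKO mice carried the same transgene with both copies of Zfhx3 floxed (Dlx5/6-Cre; Zfhx3F/F), so recombination was limited to cells with Cre, and the other cells of the dissected piece kept the gene. The comparison asks how loss of Zfhx3, a zinc-finger and homeodomain transcription factor, alters receptor gene expression in developing striatum.

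GABA-A receptors are chloride channels built from several subunits, and GABA-B receptors are obligate dimers that signal through G proteins. Ionotropic glutamate receptors are tetrameric cation channels of the AMPA, kainate and NMDA classes, with the delta receptors as relatives that act mainly as synaptic organisers. Metabotropic glutamate receptors signal through G proteins and tune release and excitability. Striatal projection neurons use GABA as their own transmitter and receive glutamate from cortex and thalamus, and receptors of both kinds are present on them before their synapses are mature.

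Control libraries held 15938590 to 16753355 counts and Zfhx3-CKO libraries 18960574 to 20311799, and the receptor genes held 31144 to 57638 of those counts per library. Zfhx3 itself was at 134, 135 and 101 CPM (counts scaled to library depth) in control libraries 1, 2 and 3, against 98.7, 87.3 and 99.3 CPM in the same order in Zfhx3-CKO. The groups did not overlap, and the difference missed the threshold (adjusted p under 0.05) of edgeR's quasi-likelihood test (log2 fold change of Zfhx3-CKO over control -0.37, SE 0.12, adjusted p 0.0911), but it passed without control library 3 (-0.50, adjusted p 0.0259) and with DESeq2 (adjusted p 0.0489). Counts cover the whole gene, so transcripts that lack the floxed part still add to it and the level checks the labels only in part. Markers of striatal projection neurons were present in both groups (Meis2 at 874 ± 32.98 and 859.7 ± 42.75 CPM, Bcl11b, which fell, at 926.5 ± 113 and 655 ± 72.8 CPM; SD, n = 3 each). Xist, which coats the inactive X chromosome, had 5 to 9 counts in the control libraries and 55947 to 59631 in the Zfhx3-CKO libraries, while 4 Y-linked genes had 4939 to 5451 and 5 to 8, so genotype and sex divide the 6 libraries alike and cannot be told apart. The labels do not say that replicates came from separate animals, so p-values here reflect library-to-library spread, which may be technical. In bulk tissue, fewer cells of a type and less RNA per cell cannot be told apart.

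Levels between genes were compared per gene length, in deposited FPKM (read density scaled to gene length and library depth) averaged over the 6 libraries. They ran from 0.0233 FPKM for Grm6, the metabotropic receptor of retinal bipolar cells, to 43.2 FPKM for Gabbr1, the ligand-binding GABA-B subunit. Of the 44 genes, 29 reached at least 1 FPKM and 15 did not. The best measured after Gabbr1 were kainate subunits, Grik5 (42.8 FPKM) and Grik3 (39.1 FPKM), and among the others Gria2 (24.6 FPKM) and Gria1 (16.8 FPKM) were high. Every class held at least 1 gene above 3 FPKM and every class except AMPA, kainate and GABA-B held a gene under 1 FPKM.

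**Figure D1:**
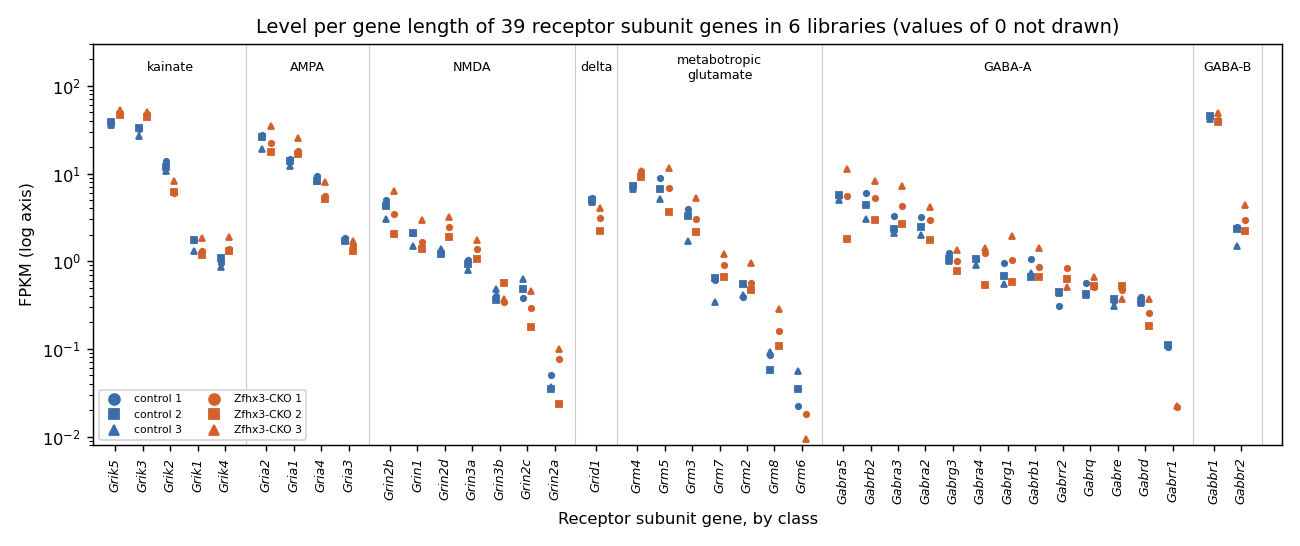
Deposited FPKM (log axis) of 39 receptor subunit genes, grouped by class and ordered by mean; each symbol is 1 library, blue for control and orange for Zfhx3-CKO. Gabbr1, Grik5 and Grik3 lie highest, and Grm6 and Gabrr1 lowest.

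The low-count filter passed 42 of the 44 genes. The genes left out were Gabrr1, a retinal rho subunit, with 4, 4 and 0 counts in the control and 1, 0 and 1 in the Zfhx3-CKO libraries, and Grm6, with 2, 3 and 5 counts against 2, 0 and 1. In edgeR's quasi-likelihood test with Benjamini-Hochberg adjustment over all 16551 genes tested, 4 receptor genes rose in the Zfhx3-CKO LGE (9.52% of the 42), where 3.87% of all tested genes rose, and 1 fell (2.38%), where 3.48% of all tested genes fell and 7.35% changed in either direction. The 4 that rose were Grik3, Grik5, Grin2d and Grm4, and the 1 that fell was Grik2, so all 5 were glutamate receptor genes and 3 of the 5 were kainate subunits. None of the 17 tested GABA receptor genes passed in edgeR's test; an unadjusted p under 0.05 was reached by 2 of them, both higher, DESeq2 called 1 (Gabra3) and limma on FPKM called 0. Whether glutamate and GABA receptor genes differ in how often they changed was not tested. At an unadjusted p under 0.05, 12 receptor genes were higher and 3 lower, where 13.5% and 12.1% of all tested genes were. The groups did not overlap for 12 higher and 3 lower receptor genes among the 42, where 15.5% and 15.9% of all tested genes did not. The median log2 fold change over the 42 genes was 0.22, where the median over all tested genes was 0.00 and the middle 50% of them ran from -0.18 to 0.19. DESeq2 called 8 receptor genes higher and 2 lower, where it called 6.01% and 4.44% of all genes. The count of higher genes in edgeR was 1 without control library 1 or 2 or Zfhx3-CKO library 1, 2 when control library 3 was left out and 10 when Zfhx3-CKO library 2 was (5.11% of all genes higher and 3.61% lower in that fit). The count of lower genes was 0 without control library 1 or 2 or Zfhx3-CKO library 1 and 5 when Zfhx3-CKO library 3 was left out (6.47% of all genes higher and 6.06% lower in that fit). In the fits without control library 1, 2 or 3 or Zfhx3-CKO library 1, the share of all genes called was not counted. Whether the fall in calls there is particular to receptor genes is therefore not known. A mark of significance is given to 122 genes in the authors' deposited table, 0 of them receptor genes (the rule for the mark is not stated). That table lists log2 fold changes of 0.60 for Grik3, 0.40 for Grik5, -0.74 for Grik2, 0.51 for Grm4 and 0.81 for Grin2d. The adjusted p it lists, from a test it does not name, were 3.25e-07, 0.000363, 1.01e-06, 0.000117 and 9.39e-05 in that order. They were also under 0.05 for Gria1, Grid1, Gabra3, Grik4 and Grin3a, so the absence of marks does not mean that no receptor gene passed there.

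**Figure D2:**
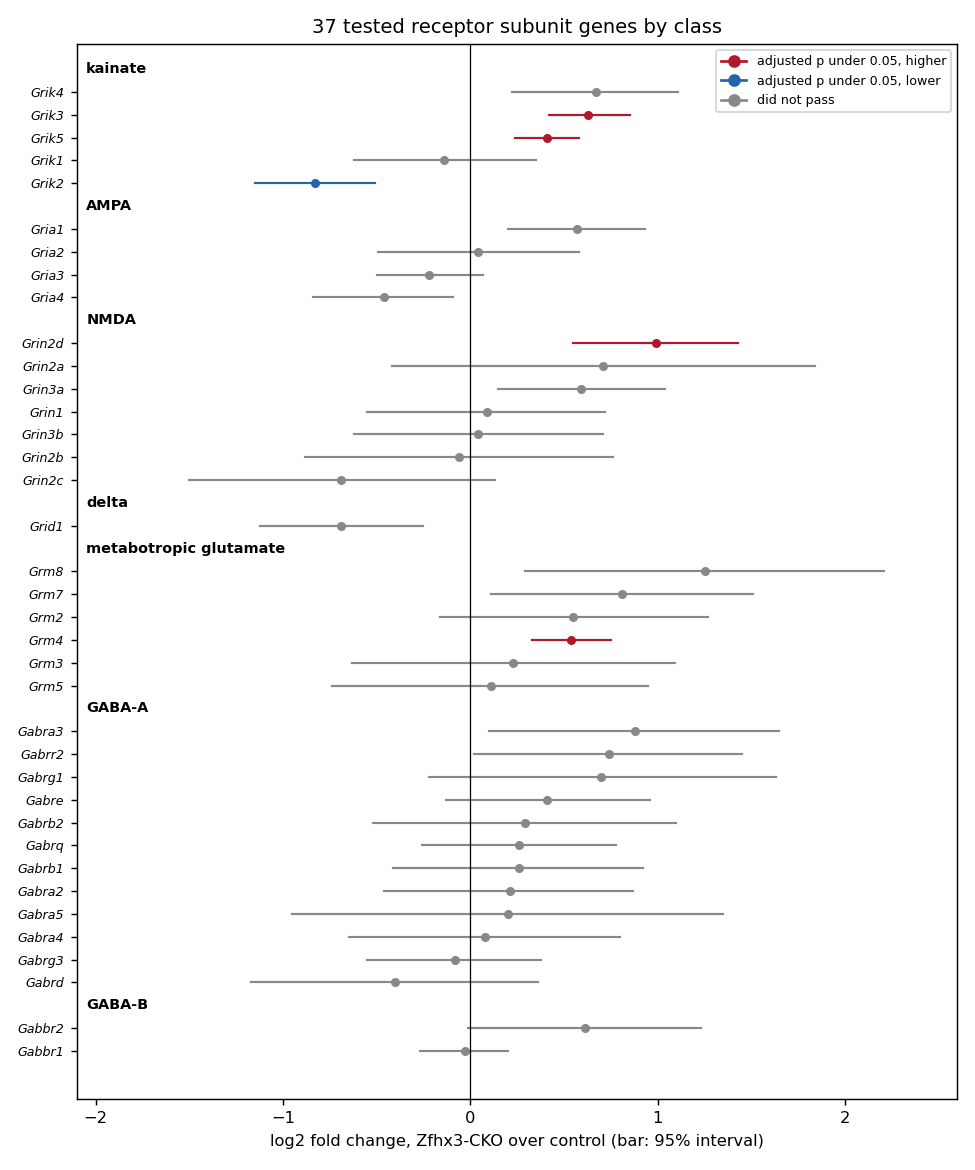
Log2 fold change of Zfhx3-CKO over control for 37 tested receptor genes by class; points are edgeR estimates and bars their 95% intervals. Of these genes 4 passed as higher (red), 1 as lower (blue) and 32 did not pass (grey).

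Among the kainate receptor genes, whose channels modulate release and excitability, 2 of 5 rose, 1 fell and 2 did not pass. Grik3, a low-affinity kainate subunit (ENSMUSG00000001985, chromosome 4, 125490700 to 125714173, plus strand, GRCm38), was at 291, 296 and 239 CPM in control libraries 1, 2 and 3, against 423, 400.1 and 458 CPM in the same order in Zfhx3-CKO. All Zfhx3-CKO libraries lay above all controls, and Grik3 rose 1.55-fold (log2 fold change 0.63, SE 0.10, adjusted p 0.00768 in edgeR). Grik5, a high-affinity subunit that needs a low-affinity partner to form a channel (ENSMUSG00000003378, chromosome 7, 25009849 to 25072346, minus strand), was at 188, 199 and 184 CPM and at 242, 241 and 275 CPM. Its libraries also parted without overlap, and it rose 1.33-fold (log2 fold change 0.41, SE 0.08, adjusted p 0.0171). Grik2, another low-affinity subunit and the main partner of Grik5 in many neurons (ENSMUSG00000056073, chromosome 10, 49094833 to 49788766, minus strand), was at 182, 158 and 139.9 CPM and at 79.4, 81.5 and 109 CPM. It moved the other way and fell to 56.2% of the control level (log2 fold change -0.83, SE 0.14, adjusted p 0.0117). Grik4, the second high-affinity subunit, was at 5.61, 6.55 and 5.02 CPM and at 8.22, 7.72 and 11.3 CPM. The Grik4 groups did not overlap, but it did not pass (log2 fold change 0.67, SE 0.19, adjusted p 0.0742; 0.0387 to 0.246 over the alternatives). Grik1, a low-affinity subunit, was at 10.8, 10.7 and 7.95 CPM and at 7.98, 7.25 and 11.6 CPM, with overlapping groups (log2 fold change -0.14, 95% interval -0.62 to 0.35, adjusted p 0.733).

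**Figure D3:**
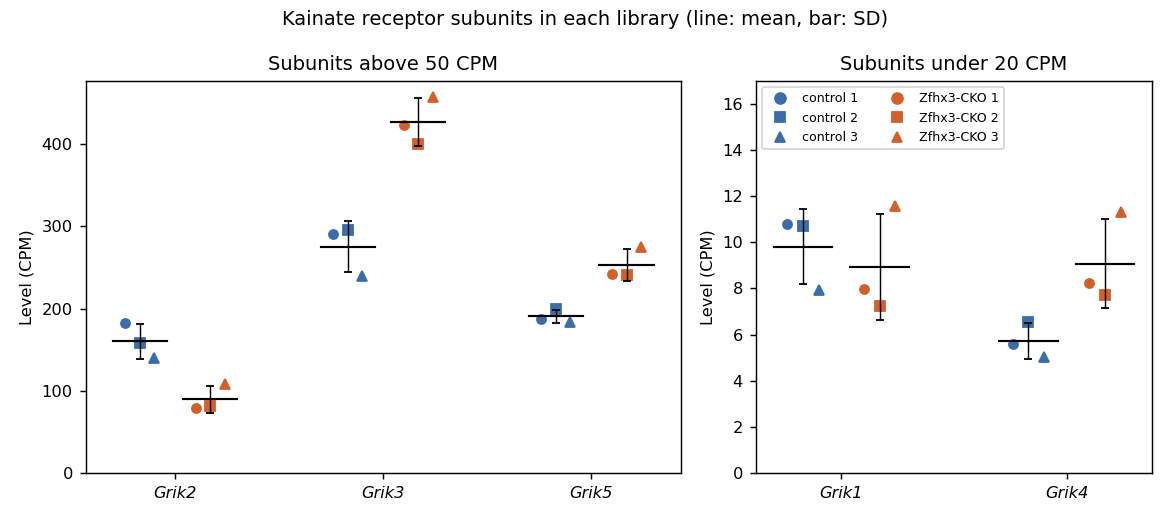
CPM of the 5 kainate subunits in each library (symbols), with the mean (line) and SD (bar) of each group of 3. Grik3 and Grik5 are higher in all 3 Zfhx3-CKO libraries than in any control, and Grik2 is lower in all 3.

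The call of Grik3 held without each of the 6 libraries in turn (highest adjusted p 0.0395, without control library 1). That of Grik2 was lost without control library 1 or 2 or Zfhx3-CKO library 1 (adjusted p 0.0739, 0.064 and 0.0578, at log2 fold changes of -0.72, -0.83 and -0.75), and that of Grik5 without control library 1, 2 or 3 or Zfhx3-CKO library 1 (adjusted p 0.0968, 0.0671, 0.0579 and 0.0524, with log2 fold changes of 0.38 to 0.45). With Zfhx3-CKO libraries 1 and 3 both left out, the log2 fold changes were 0.54 for Grik3, 0.34 for Grik5 and -0.97 for Grik2. Cortical excitatory neuron markers were high in the libraries left out, and the part of such cells in these changes was not tested. With the lone remaining Zfhx3-CKO library, the fit assumes that it varies like the controls.

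The opposite movement of Grik2 and Grik3 changed the makeup of the kainate class. In shares of the summed kainate FPKM, Grik2 took 16.1%, 13.8% and 14.1% in the control libraries and 5.84%, 6.17% and 7.07% in the Zfhx3-CKO libraries, 8.33 percentage points less on average. Grik3 took 38.1%, 38.2% and 35.6% and then 45.9%, 44.7% and 43.9%, 7.56 points more. Grik5 took the largest single share in the controls (44.95% ± 2.44) and was close to Grik3 in the Zfhx3-CKO libraries (46.0% ± 0.55 and 44.8% ± 1.03; SD, n = 3 each). The ratio of Grik3 to Grik2 FPKM was 2.36, 2.76 and 2.53 in the controls and 7.87, 7.25 and 6.21 in the Zfhx3-CKO libraries. The sum over the 5 genes was 85.2, 85.9 and 75.6 FPKM in the controls and 103, 99.5 and 115 FPKM in the Zfhx3-CKO libraries, 1.29 times the control mean, without overlap. These sums and shares rest on chosen genes and carry no test.

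**Figure D4:**
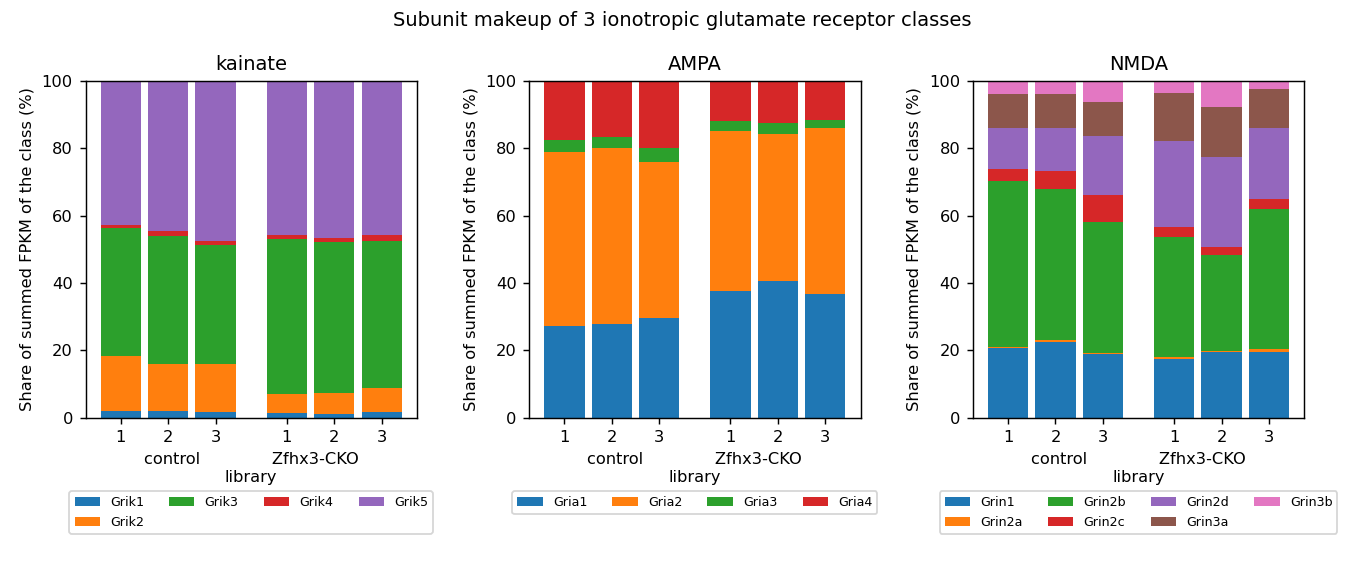
Share of each subunit in the summed FPKM of its class, in percent, for the kainate, AMPA and NMDA classes; each bar is 1 library. The Grik2 share shrinks from 14.7% to 6.36%, the Gria1 share grows from 28.2% to 38.3% and the Grin2d share from 14.2% to 24.5% (group means).

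The start regions of the kainate genes that changed are shown because this class alone held genes that passed in both directions. RefSeq promoter windows (GRCm38.p6) were found for 29 of the 44 receptor genes, 36 windows in all; for each, the 250 bases before the annotated start were searched. The windows of Grik3 (chr4:125490446-125490695, plus strand), Grik5 (chr7:25072370-25072619, minus strand) and Grik2 (chr10:49788755-49789004, minus strand) are printed 5′ to 3′ along the gene, with each GC box, GGGCGG or its reverse complement CCGCCC, in capitals.
Grik3: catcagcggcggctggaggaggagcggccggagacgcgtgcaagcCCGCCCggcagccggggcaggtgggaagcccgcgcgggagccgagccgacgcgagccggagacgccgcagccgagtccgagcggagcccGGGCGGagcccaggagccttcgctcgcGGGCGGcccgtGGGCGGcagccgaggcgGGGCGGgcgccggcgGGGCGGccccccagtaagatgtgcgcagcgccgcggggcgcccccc
Grik5: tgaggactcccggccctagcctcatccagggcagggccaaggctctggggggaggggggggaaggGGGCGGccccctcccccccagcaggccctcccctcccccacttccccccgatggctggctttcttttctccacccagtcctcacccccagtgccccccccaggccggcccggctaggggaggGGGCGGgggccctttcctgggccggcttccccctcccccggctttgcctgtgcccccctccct
Grik2: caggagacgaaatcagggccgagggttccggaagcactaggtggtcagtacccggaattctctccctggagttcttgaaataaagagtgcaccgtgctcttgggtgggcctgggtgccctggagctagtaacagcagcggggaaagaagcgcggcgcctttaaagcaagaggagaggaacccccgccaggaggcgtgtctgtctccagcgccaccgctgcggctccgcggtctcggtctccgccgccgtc
The Grik3 window held 6 GC boxes, 5 as GGGCGG and 1 as CCGCCC, the Grik5 window held 2 and the Grik2 window 0. Among all 32851 windows of that length 32.7% held at least 1 and 8.47% at least 3. G and C made up 82.0%, 75.2% and 62.8% of the Grik3, Grik5 and Grik2 windows, where the median was 52.4% over all windows and 60.8% over the receptor gene windows. A link between these letters and the direction of change was not tested. The homeodomain core TAATTA, which reads the same on both strands, was in none of the 3 windows and in 4.84% of all windows, and TATAAA, searched on both strands, was in none of the 3 and in 12.4% of all. These matches describe letters and not binding.

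None of the 4 AMPA receptor genes, which carry most fast excitatory transmission, passed in edgeR's test; at an unadjusted p under 0.05, 1 was higher and 1 lower, DESeq2 called 1 (Gria1, higher) and limma on FPKM called 0. Gria2, the subunit whose edited form makes the channel impermeable to calcium, was the best measured, at 429.6, 406 and 296 CPM in the controls against 346, 276 and 541 CPM in Zfhx3-CKO. Its groups overlapped widely (log2 fold change 0.04, 95% interval -0.49 to 0.58, adjusted p 0.937). Gria1 was at 87.4, 84.7 and 73.5 CPM and at 107, 99.9 and 156 CPM, without overlap (log2 fold change 0.57, SE 0.16, adjusted p 0.0697). It passed without Zfhx3-CKO library 2 or 3 (adjusted p 0.0228 and 0.0375), but did not under 11 of 15 alternatives (up to 0.188). Gria4, an AMPA subunit prominent early in development, was at 58.95, 52.5 and 51.1 CPM and at 34.8, 32.2 and 50.9 CPM. Zfhx3-CKO library 3 stood just under the lowest control (log2 fold change -0.46, SE 0.16, adjusted p 0.121). Without that library, the highest of its group, Gria4 passed as lower (log2 fold change -0.69, adjusted p 0.003). It did not pass under 12 of 15 alternatives (adjusted p up to 0.341). Gria3, on the X chromosome, was at 16.9 to 18.3 CPM and 13.1 to 16.9 CPM (log2 fold change -0.22, adjusted p 0.319), and for this X-linked gene genotype and sex cannot be told apart.

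Within the AMPA class, the balance of Gria1 and Gria4 differed between the groups. The ratio of Gria4 to Gria1 FPKM was 0.646, 0.594 and 0.666 in the control libraries and 0.311, 0.309 and 0.312 in the Zfhx3-CKO libraries, a mean of 0.635 ± 0.0375 against 0.311 ± 0.00182 (SD, n = 3 each). The ratio was chosen after the counts were seen and has no test. Gria1 took 28.2% ± 1.28 of the summed AMPA FPKM in the controls and 38.3% ± 2.01 in the Zfhx3-CKO libraries, and Gria4 18.0% ± 1.62 and 11.9% ± 0.554, both without overlap. The class sum was 53.3, 49.96 and 41.4 FPKM and then 47.4, 40.6 and 69.9 FPKM, so the sums overlapped.

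Of the 7 NMDA receptor genes, 1 rose and 6 did not pass. Grin2d, a slow-gating subunit typical of early development and of interneurons (ENSMUSG00000002771, chromosome 7, 45831883 to 45878378, minus strand), was at 8.23, 8.06 and 9.09 CPM in the controls against 16.3, 12.7 and 21.3 CPM in Zfhx3-CKO. The groups did not overlap, and Grin2d rose 1.98-fold (log2 fold change 0.99, SE 0.19, adjusted p 0.0211), the largest fold among the 5 receptor genes that passed. Its call was lost without control library 1, 2 or 3 (adjusted p 0.108, 0.1075 and 0.0601), or Zfhx3-CKO library 1 (0.0716), with limma on FPKM (0.0543), and when Zfhx3-CKO libraries 1 and 3 were both left out (log2 fold change 0.58, adjusted p 0.0648). The span of Grin2d overlaps that of Kdelr1 on the other strand by 5607 bases, but the genes share 0 exon bases in GENCODE vM21, and Kdelr1 was at 76.2 ± 4.99 and 64.6 ± 2.97 CPM (SD, n = 3 each; log2 fold change -0.24, adjusted p 0.0936).

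Grin2b, the main NMDA subunit before birth, was the best measured of the class, at 124, 105 and 74.6 CPM in the controls against 84.5, 50.4 and 156 CPM in Zfhx3-CKO. The Zfhx3-CKO libraries spanned the control range on both sides (log2 fold change -0.06, 95% interval -0.88 to 0.76, adjusted p 0.937). Grin3a, a subunit that lowers calcium entry and is most active in young neurons, was at 12.6, 11.4 and 9.68 CPM and at 16.6, 12.9 and 21.3 CPM, without overlap (log2 fold change 0.59, SE 0.19, adjusted p 0.103). It passed without Zfhx3-CKO library 2, the lowest of its group (adjusted p 0.0261), and with DESeq2 (0.0433), but did not under 12 of 15 alternatives (up to 0.544). Grin1, the subunit every NMDA channel needs, had a log2 fold change of 0.09 (95% interval -0.55 to 0.72). Grin2a and Grin2c, which rise after birth, and Grin3b were at 0.423 to 3.17 CPM in all libraries and did not pass. For Grin3b, 32.1% of its exon bases are shared with Tmem259 on the other strand, and the library kind does not mark strand, so its reads and those of Tmem259 cannot be told apart there. Grin2d took 12.1%, 12.9% and 17.6% of the summed NMDA FPKM in the controls and 25.6%, 26.7% and 21.2% in the Zfhx3-CKO libraries, while Grin2b took 44.3% ± 5.22 and 35.2% ± 6.61 (SD, n = 3 each) with overlap.

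Neither delta receptor gene passed in edgeR's test; Grid1 was lower at an unadjusted p under 0.05, DESeq2 called it lower and limma on FPKM called neither. Grid1, whose product joins synapses through secreted cerebellins (ENSMUSG00000041078, chromosome 14, 34819825 to 35583379, plus strand), was at 32.3, 30.4 and 28.6 CPM in the controls against 18.6, 13.6 and 24.5 CPM in Zfhx3-CKO. All Zfhx3-CKO libraries lay below all controls (log2 fold change -0.69, SE 0.19, adjusted p 0.0643). When Zfhx3-CKO library 3, the highest of its group, was left out, Grid1 passed (log2 fold change -0.92, adjusted p 0.00598). Leaving out the highest library of a lower group favours such a call. Grid1 did not pass under 11 of 15 alternatives (adjusted p up to 0.219). With library 2 alone against the controls its log2 fold change was -1.16.

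Of the 7 tested metabotropic glutamate receptor genes, 1 rose and 6 did not pass. All 7 had a positive log2 fold change (median 0.55), as did 30 of the 42 tested receptor genes (median 0.22). In all 7, library 2 was the lowest and library 3 the highest of the Zfhx3-CKO libraries. Those of Grm3 and Grm5 turned negative without Zfhx3-CKO library 3 and without control library 3. Grm4, a presynaptic receptor that lowers cAMP and restrains release (ENSMUSG00000063239, chromosome 17, 27422387 to 27513341, minus strand), was at 38.6, 38.9 and 34.9 CPM in the controls against 56.8, 49.1 and 57.3 CPM in Zfhx3-CKO. The groups did not overlap, and Grm4 rose 1.45-fold (log2 fold change 0.54, SE 0.09, adjusted p 0.0119). Its call was lost without control library 1 or 2 or Zfhx3-CKO library 1 (adjusted p 0.0655, 0.0595 and 0.0595) and without Zfhx3-CKO libraries 1 and 3 together (log2 fold change 0.39, adjusted p 0.0564). Grm5, a receptor coupled to calcium release, was at 90.8, 68.3 and 51.4 CPM and at 69.3, 37.2 and 119.8 CPM. Its groups overlapped (log2 fold change 0.11, 95% interval -0.74 to 0.95).

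Grm7, a presynaptic receptor of low glutamate affinity, was at 3.58, 3.78 and 1.97 CPM in the controls against 5.33, 3.86 and 7.17 CPM in Zfhx3-CKO (log2 fold change 0.81, SE 0.31, adjusted p 0.142). Grm8, a presynaptic receptor of the Grm4 and Grm7 group, was at 0.835, 0.567 and 0.897 CPM and at 1.57, 1.06 and 2.87 CPM (log2 fold change 1.25, SE 0.42, adjusted p 0.108). In Grm7 and Grm8 the lowest Zfhx3-CKO value, that of library 2, lay close above the highest control. Grm8 passed without that library (log2 fold change 1.52, adjusted p 0.0409), but did not under 12 of the 13 alternatives that tested it (up to 0.607). Grm2 and Grm3, the receptors of the other presynaptic and glial group, had log2 fold changes of 0.55 and 0.23 with overlapping groups (adjusted p 0.303 and 0.751).

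None of the 15 tested GABA-A receptor genes passed in edgeR's test. At an unadjusted p under 0.05, 2 were higher (Gabra3 and Gabrr2) and 0 lower, where 13.5% and 12.1% of all tested genes were. DESeq2 called Gabra3 and limma on FPKM called 0. Over the 17 tested GABA receptor genes, edgeR called 2 lower without Zfhx3-CKO library 3, where 6.06% of all tested genes fell. Without library 2 it called 1 higher (Gabra3), where 5.11% rose. With library 2 alone against the controls, Gabra4 and Gabra5 had log2 fold changes of -0.90 and -1.60. The log2 fold changes of the GABA-A genes over all libraries ran from -0.40 (Gabrd) to 0.88 (Gabra3), with a median of 0.21. Gabra3, an X-linked alpha subunit of young forebrain neurons, was at 12.8, 9.26 and 8.25 CPM in the controls against 16.7, 10.4 and 28.5 CPM in Zfhx3-CKO, with overlap (log2 fold change 0.88, SE 0.34, adjusted p 0.149). It passed without Zfhx3-CKO library 2, the lowest of its group, but did not under 11 of the 14 alternatives that tested it (adjusted p up to 0.941). Gabrr2, a rho subunit, was at 0.656, 0.945 and 0.897 CPM and at 1.76, 1.32 and 1.08 CPM, under 2 CPM in every library (log2 fold change 0.74, SE 0.31, adjusted p 0.183). Gabra5, which marks extrasynaptic receptors, had the largest SE of the class (0.50), at 14.7 to 16.8 CPM in the controls against 16.2, 5.29 and 33.6 CPM in Zfhx3-CKO libraries 1, 2 and 3 (log2 fold change 0.20, 95% interval -0.95 to 1.35).

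Many GABA-A genes lie in clusters. On chromosome 5 (70751047 to 72149037) Gabrg1, Gabra2, Gabra4 and Gabrb1 had log2 fold changes of 0.70, 0.21, 0.08 and 0.26, and all 4 groups of values overlapped. The X-linked cluster (72255999 to 72842602) holds Gabre, Gabra3 and Gabrq, at 0.41, 0.88 and 0.26, and here genotype and sex cannot be told apart. Gabra3 took 5.71%, 4.66% and 4.79% of the summed GABA-A FPKM in the controls and 9.08%, 8.49% and 10.2% in the Zfhx3-CKO libraries, without overlap.

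Neither GABA-B gene passed in edgeR's test, and neither had an unadjusted p under 0.05 or a call by DESeq2 or by limma on FPKM. Gabbr1 was at 347, 351 and 319.8 CPM in the controls against 311, 298 and 386 CPM in Zfhx3-CKO (log2 fold change -0.03, 95% interval -0.27 to 0.20, adjusted p 0.8698). Gabbr2, the partner that carries GABA-B dimers to the surface and couples them to G proteins, was at 16.3, 15.75 and 9.80 CPM and at 19.5, 14.8 and 29.3 CPM (log2 fold change 0.61, 95% interval -0.01 to 1.23, adjusted p 0.204). Gabbr1 exceeded Gabbr2 in FPKM by 18.4, 19.2 and 28.1 times in the controls and by 13.7, 17.3 and 11.3 times in the Zfhx3-CKO libraries.

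The receptor genes shared an order among the Zfhx3-CKO libraries. Library 2 was the lowest and library 3 the highest of the 3 in 37 of the 42 tested receptor genes, where 24.5% of all tested genes had that order (library 2 was lowest in 35.0% and library 3 highest in 37.3%). The exceptions were Gabre, Gabrq, Gabrr2, Grik2 and Grin3b. Relative to the control mean, the median receptor gene stood at 0.11, -0.39 and 0.66 (log2 CPM) in Zfhx3-CKO libraries 1, 2 and 3, where the control libraries had 0.12, 0.05 and -0.16. For the kainate class the medians of all 3 Zfhx3-CKO libraries (0.35, 0.34 and 0.53) lay above those of the controls (0.09, 0.11 and -0.19), and for the metabotropic class likewise (0.60, 0.18 and 0.91 against 0.13, 0.05 and -0.13). For the GABA-A class library 2 lay below every control and library 3 above (0.11, -0.51 and 0.49 against 0.19, -0.01 and -0.16), and the AMPA and NMDA classes had the same spread.

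**Figure D5:**
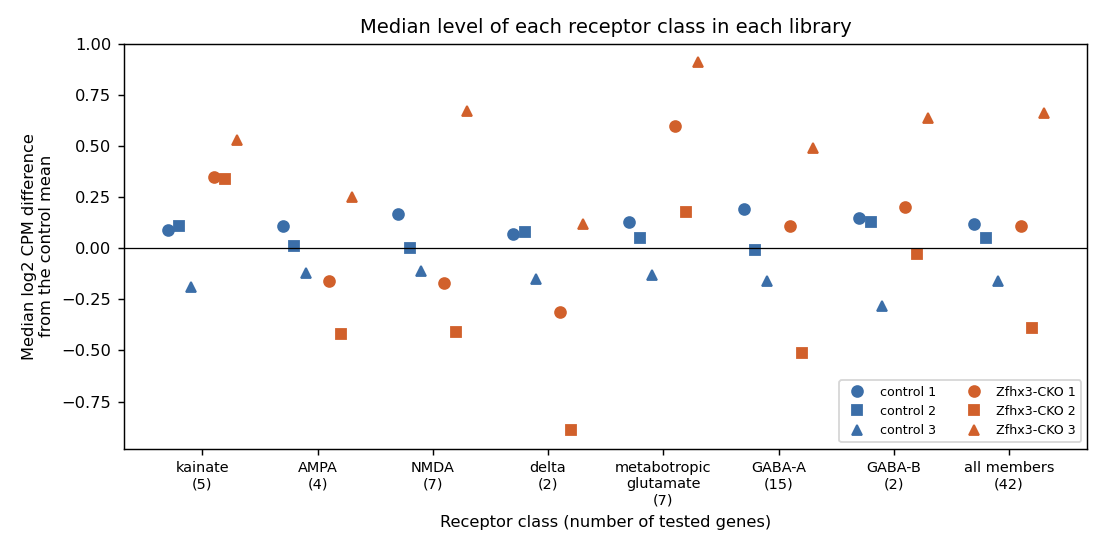
Median log2 CPM difference from the control mean over the tested genes of each class, 1 symbol per library (blue control, orange Zfhx3-CKO; circle, square and triangle for libraries 1, 2 and 3). Zfhx3-CKO library 3 is the highest in every class, and library 2 the lowest of the Zfhx3-CKO libraries.

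Markers of other cells also differed among these libraries. The median of 13 tested cortical excitatory neuron genes exceeded that of the controls by 1.71, 0.09 and 2.0 (log2 CPM) in the Zfhx3-CKO libraries numbered 1, 2 and 3, and the 14 genes summed to 39.7 to 46.1 FPKM in the controls and to 102, 57.0 and 119.6 FPKM in the Zfhx3-CKO libraries. Neurod2 was at 39.0, 9.68 and 69.4 CPM there, where the controls had 8.31 ± 0.29 CPM (SD, n = 3). Slc17a7, a defining gene of mature excitatory neurons, was at 0.418, 0.252 and 0.120 CPM in the controls. In Zfhx3-CKO libraries 1, 2 and 3 it was at 0.489, 0.265 and 2.05 CPM, and the low-count filter left it out. Of these 14 genes 2 rose (Bhlhe22 and Lhx2). Lhx2, the best measured of the list, had another order, with 25.6, 27.4 and 18.9 FPKM in Zfhx3-CKO libraries 1, 2 and 3. The controls had 13.4 ± 1.95 FPKM (SD, n = 3), so Lhx2 weighs on the sum of library 2. The median of 12 progenitor and cycling cell genes stood at 0.48, 0.51 and 0.09, that of 10 genes of both striatal projection neuron types at -0.36, -0.64 and -0.18, that of 6 D2-type genes at 0.84, 0.75 and 0.92 and that of 7 D1-type genes at -0.82, -1.07 and -0.13. Of the progenitor genes 5 rose, of those of both projection neuron types 5 fell, of the D2-type genes 5 rose and of the D1-type genes 3 fell, where 3.87% of all tested genes rose and 3.48% fell. The 8 interneuron and medial ganglionic eminence genes, among which Nkx2-1 and Lhx8 rose, stood at -0.07, 0.13 and 0.42, and the 6 microglial genes summed to 59.2 to 87.3 FPKM in the controls and 36.1 to 56.0 FPKM in the Zfhx3-CKO libraries. Of these 6, P2ry12 fell from 23.8, 23.4 and 36.1 FPKM to 8.33, 9.92 and 5.51 FPKM (log2 fold change -1.80) and 5 did not pass, among them Cx3cr1 with the opposite sign (log2 fold change 0.61, adjusted p 0.0877). The part of these cell types in the receptor gene differences was not tested. A fit with Zfhx3-CKO library 2 alone cannot decide it, because it rests on 1 Zfhx3-CKO library. The medians of progenitor, both-type projection neuron and D1-type genes in that library (0.51, -0.64 and -1.07) also lay outside the control range. In that fit Grm4 and Grin2d had log2 fold changes of 0.39 and 0.58. In Zfhx3-CKO library 2 alone against the controls, where the cortical median was near 0, Grik3 and Grik5 were higher, 8 receptor genes were lower, among them Grik2, Grid1, Gria4, Gabra4, Gabra5 and Grin2b, and 4.97% and 4.93% of all tested genes were.

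The wider machinery of both transmitters was compared through 7 lists with 72 different genes, 67 of them tested. Of these 1 rose and 4 fell in edgeR's test, where 3.87% and 3.48% of all tested genes did, with a median log2 fold change of -0.03. Of 14 AMPA and kainate receptor auxiliary genes, Gsg1l, an AMPA receptor auxiliary protein that slows recovery, rose from 3.52, 2.39 and 3.29 CPM to 6.51, 5.45 and 6.96 CPM (log2 fold change 1.04, SE 0.21, adjusted p 0.0223). Cacng4, an auxiliary protein of the stargazin family that carries AMPA receptors to the surface, fell from 232, 239 and 216 CPM to 158, 142 and 182 CPM (log2 fold change -0.51, adjusted p 0.018). The other 12 did not pass in edgeR's test, though DESeq2 also called Neto2 lower (edgeR adjusted p 0.0561). Among them was Cnih2, the best measured (115.5 ± 4.47 and 134.5 ± 25.8 CPM; SD, n = 3 each). Both groups were apart for Gsg1l and for Cacng4, but the calls were lost without control library 1 or 2 or Zfhx3-CKO library 1, and that of Gsg1l also without control library 3 (highest adjusted p 0.0959 for Gsg1l and 0.106 for Cacng4). That of Gsg1l was lost too without Zfhx3-CKO libraries 1 and 3 together (log2 fold change 0.82, adjusted p 0.091).

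None of 21 excitatory postsynaptic scaffold genes passed in edgeR's test (log2 fold changes of -0.34 to 0.28, median 0.00; 2 higher and 1 lower at an unadjusted p under 0.05, 0 by DESeq2 and 0 by limma on FPKM), with Dlgap4 the best measured (466 ± 16.3 and 414 ± 20.9 CPM). Of 11 inhibitory scaffold genes 1 passed in edgeR's test, 3 in DESeq2 (Slitrk3 lower, Mdga1 and Lhfpl4 higher) and 0 in limma on FPKM. Slitrk3, a trans-synaptic organiser of inhibitory synapses, fell from 51.0, 53.2 and 45.4 CPM to 37.3, 32.95 and 41.4 CPM (adjusted p 0.0486, log2 fold change -0.42), and passed under 6 of 15 alternatives. It was lost without any 1 of control libraries 1, 2 and 3 or Zfhx3-CKO libraries 1 and 2 (adjusted p 0.185, 0.1946, 0.0686, 0.143 and 0.0765). Of 6 tested genes of GABA synthesis, breakdown, release and uptake, 1 passed in edgeR's test and in limma on FPKM (Gad2). DESeq2 called 2 lower, Gad2 and Abat, the latter encoding an enzyme that breaks down GABA (edgeR adjusted p 0.0527 for Abat). Gad2, a GABA-synthesising enzyme, fell from 536, 580.2 and 487 CPM to 419.5, 412 and 423 CPM (log2 fold change -0.35, SE 0.08, adjusted p 0.0293). That call was lost without control library 1 or 2 or Zfhx3-CKO library 1 (adjusted p 0.126, 0.134 and 0.1095) and without Zfhx3-CKO libraries 1 and 3 together (0.0618). Of 6 chloride transporter genes 1 passed in edgeR's test and in DESeq2 (Clcn3) and 0 in limma on FPKM. At an unadjusted p under 0.05, 2 were higher and 2 lower. Their log2 fold changes ran from -0.30 to 0.68, the highest in Slc12a5, whose groups overlapped (edgeR adjusted p 0.142). Clcn3, a vesicular chloride exchanger, fell from 143 ± 7.504 to 116 ± 6.52 CPM (SD, n = 3 each; log2 fold change -0.30, adjusted p 0.0439). It passed without Zfhx3-CKO library 3 alone of the 6 libraries (adjusted p 0.019), and without each other library the adjusted p lay between 0.0652 and 0.1865. Slc12a2, which loads chloride into young neurons, was at 133 ± 4.38 and 116 ± 7.09 CPM and did not pass (adjusted p 0.128). None of 8 tested genes of glutamate metabolism, release and uptake and neither of the 2 tested glycine receptor genes passed in edgeR's test. At an unadjusted p under 0.05, 1 of the former was higher and 1 lower, and 0 of the latter were either. DESeq2 and limma on FPKM called 0 of both. Glul was at a log2 fold change of -0.29 and Glra2 at 0.17.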

How the data were processed

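RNA of 6 LGE samples, 3 control and 3 Zfhx3-CKO, was sequenced by the authors with a TruSeq kit that does not mark strand, per the labels' protocols. Builds GRCm38.p4 and mm10 are listed in the submitters' processing notes, as are HISAT2, StringTie, edgeR and bcl2fastq 2.17.1.14, with no role given for any. Counts were deposited as whole numbers, 1 per gene and library, and FPKM were scaled by the authors to gene length and library depth, per the file headers. Columns of the full table carry short names, tied to samples by group and replicate number in the name; for all 3726 genes that a second table lists under the sample titles, the values were identical. The authors' deposited comparison table gives a mean signal per gene, log2 fold changes and p-values. Of these, log2 fold changes, adjusted p and significance marks were copied.

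Genes were filtered with edgeR 4.0.16 (filterByExpr, minimum count 10), which kept 16551 of 29659 and left out 13108. TMM factors ran from 0.9921 to 1.008. Both groups were fitted without a block by edgeR's quasi-likelihood test on the counts, with Benjamini-Hochberg adjustment over all genes tested. Each SE is the size of the log2 fold change divided by the square root of the test's F statistic. Intervals are approximate 95% intervals of the log2 fold change, built from that SE, and rest on the spread between libraries. Log2 CPM used a prior count of 2. Alternatives used DESeq2 1.42.0, limma 3.58.1 on log2(FPKM + 1), other scalings and filters, a replicate block and left-out libraries. On simulated counts over 16553 genes for this comparison, 200 genes were changed, 50 at each of 4 folds. The test recovered 24 of 50 changed 1.5-fold, 37 changed 2-fold, 48 changed 4-fold and 50 changed 8-fold. In the whole simulation, 20 genes that were not changed were called.

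The receptor genes and lists were chosen with earlier results of these data known. Values in every library are given for Zfhx3, for receptor genes that passed or had an unadjusted p under 0.05, and for the best measured gene of each class by FPKM. The values of 5 receptor genes are not reported here, though counts and medians include them. From each pathway list the genes that passed and the best measured are named. Replicates of a group differed by more than sampling noise, with a chi-square per gene of 3.33 to 29.5.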

Additional observations from a re-analysis of the deposited data

How the results depend on the processing

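With the replicate number as a block, 0 receptor genes were higher and 0 lower, and 0 pathway genes were higher and 0 lower; the adjusted p were then 0.0522 (Grik3), 0.0621 (Grik2), 0.0876 (Grik5), 0.0678 (Grm4) and 0.0511 (Grin2d). Same-numbered libraries had correlations of -0.0348, -0.0811 and -0.251 in their deviations from the group means. With 3 libraries per group, such correlations cannot show whether the numbers pair the libraries, and the loss of calls under the block stands. Against 4 higher and 1 lower receptor genes, DESeq2 gave 8 and 2, no low-count filter 8 and 3, and leaving out 1 library 1 to 10 and 0 to 5. The share of all genes called was not counted under the block, with limma on FPKM or without the low-count filter. Whether the loss of calls under the block is particular to receptor or pathway genes is therefore not known. With DESeq2, 6.01% of all genes were higher and 4.44% lower. Without Zfhx3-CKO library 2 the shares were 5.11% and 3.61%, and without Zfhx3-CKO library 3 they were 6.47% and 6.06%. Against 1 higher and 4 lower pathway genes, DESeq2 gave 3 higher, no low-count filter 4 higher, limma on FPKM 2 lower, library 2 alone 2 and 12, and leaving out 1 library 0 to 5 and 0 to 10. In CPM the share differences were 11.4 (Grik3), -13.6 (Grik2), 6.27 (Gria1), -3.26 (Gria4) and 5.47 points (Grin2d), as CPM are not per gene length. Reversals named here concern receptor genes that had not passed. Under the block the log2 fold changes were -0.00 (Gria2), -0.01 (Gabra4), -0.11 (Gabra5) and -0.02 (Grm5), and with limma -0.00 (Gria2), -0.08 (Gabra5) and -0.00 (Grm5). With Zfhx3-CKO library 2 alone against the controls they were -0.45 (Gria2), -0.54 (Gabra2), -0.90 (Gabra4), -1.60 (Gabra5), -0.33 (Gabrb1), -0.59 (Gabrb2), -0.33 (Gabrg1), -0.44 (Grin1), -0.77 (Grin2a), -0.46 (Grm3) and -0.91 (Grm5). Leaving out 1 library gave ranges of -0.28 to 0.24 (Gria2), -0.12 to 0.47 (Gabra2), -0.18 to 0.40 (Gabra4), -0.57 to 0.64 (Gabra5), -0.12 to 0.50 (Gabrb1), -0.13 to 0.59 (Gabrb2), -0.31 to 0.09 (Gabrg3), -0.16 to 0.04 (Gabbr1), -0.31 to 0.29 (Grin1), -0.59 to 0.25 (Grin2b), -0.20 to 0.19 (Grin3b), -0.20 to 0.49 (Grm3) and -0.39 to 0.43 (Grm5). The cause of these reversals was not tested.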
